A study of Rattus norvegicus with 8 samples.

Results

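The 10 genes described here encode the enzymes that close the sterol ring and carry lanosterol to cholesterol. Their expression was compared between the spinal cords of rats with MBP-EAE and of healthy controls. The members were taken by gene symbol from the annotation of the array platform. All 10 were measured, each by 1 transcript cluster (a group of probe sets that stands for a gene), among 7589 named genes on the arrays. The MBP-EAE cords came from 4 virgin female Lewis rats (217, 218, 219 and 241) which received 50 µg of MBP, myelin basic protein, under the skin in Freund's incomplete adjuvant with M.Butiricium. They were killed on day 13, about the peak of experimental autoimmune encephalomyelitis (EAE). The other 4 cords came from untreated healthy virgin female littermates (193, 194, 195 and 196) taken at the same time. The sample labels give the age of all 8 rats as 16 weeks and the methods as 11 weeks, and the MBP is guinea-pig brain MBP in the labels and recombinant in the methods. The healthy controls received neither MBP nor adjuvant, so that effects of the adjuvant and of the disease cannot be told apart.

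Cholesterol in the central nervous system is made within it, since lipoproteins of the blood do not pass the blood-brain barrier, and most of it lies in myelin. Lss closes squalene epoxide into lanosterol. Cyp51 and the reductases Tm7sf2 and Lbr then take a methyl group off the ring and reduce the bond that is left, Msmo1, Nsdhl and Hsd17b7 remove the methyl pair at the next position, and Ebp, Sc5d and Dhcr7 move, add and reduce ring bonds until the ring is that of cholesterol. Transcription of genes for cholesterol synthesis is driven by SREBP-2, a membrane-bound factor that Scap carries to the Golgi when sterol is scarce and that Insig proteins hold back when sterol is plentiful.

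SREBP-2 usually acts beside the factors NF-Y and Sp1, and the promoters of the members were searched for a site of each on both strands. The windows run from 250 bases before to 50 bases after the start of the gene in RefSeq on build GRCr8, and all 10 members had one. The CCAAT box (CCAAT) of NF-Y was found in 8 of the 10, against 37.5% of all 33469 promoters of the table and 38.4% of the 6537 promoters of genes named on the arrays. The GC box (GGGCGG) of Sp1 was found in 9 of the 10, against 33.1% of all promoters and 47% of those of array genes. The sterol regulatory element in the form TCACNCCAC was found in 0 of the 10, against 1.12% of all promoters and 1.01% of those of array genes. It was also found in 0 of 6 promoters of mevalonate and squalene enzymes. Among controllers of SREBP it was found in 0 of 8, which include Insig1, itself an SREBP target. Other forms of this element were not searched, so that these counts do not show that the members lack it.

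The 4 promoters shown belong to the members with the largest falls, Cyp51 (chr4:30991443-30991742, plus strand), Msmo1 (chr16:29746863-29747162, plus strand) and Sc5d (chr8:51538228-51538527, minus strand), and to Lbr (chr13:96095660-96095959, minus strand), which did not pass the test. CCAAT and GC boxes on either strand are in capitals, and all are written in the direction of the gene.
Cyp51: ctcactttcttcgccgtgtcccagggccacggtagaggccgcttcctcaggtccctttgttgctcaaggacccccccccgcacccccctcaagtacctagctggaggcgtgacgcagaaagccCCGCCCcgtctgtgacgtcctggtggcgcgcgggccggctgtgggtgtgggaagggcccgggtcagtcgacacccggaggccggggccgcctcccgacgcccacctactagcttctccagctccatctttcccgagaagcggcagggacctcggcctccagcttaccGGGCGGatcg
Msmo1: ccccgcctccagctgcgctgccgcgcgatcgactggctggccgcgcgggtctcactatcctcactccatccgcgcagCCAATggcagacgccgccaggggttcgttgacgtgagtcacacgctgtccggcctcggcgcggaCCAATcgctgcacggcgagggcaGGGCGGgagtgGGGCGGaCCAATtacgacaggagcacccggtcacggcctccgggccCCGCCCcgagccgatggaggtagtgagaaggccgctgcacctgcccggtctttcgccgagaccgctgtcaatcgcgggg
Sc5d: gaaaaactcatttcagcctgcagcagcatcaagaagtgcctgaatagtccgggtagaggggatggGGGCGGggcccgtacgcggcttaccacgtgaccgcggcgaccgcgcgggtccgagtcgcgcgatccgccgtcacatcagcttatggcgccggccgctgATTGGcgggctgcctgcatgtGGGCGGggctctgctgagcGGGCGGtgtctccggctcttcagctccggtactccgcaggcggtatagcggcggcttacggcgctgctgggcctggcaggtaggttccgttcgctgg
Lbr: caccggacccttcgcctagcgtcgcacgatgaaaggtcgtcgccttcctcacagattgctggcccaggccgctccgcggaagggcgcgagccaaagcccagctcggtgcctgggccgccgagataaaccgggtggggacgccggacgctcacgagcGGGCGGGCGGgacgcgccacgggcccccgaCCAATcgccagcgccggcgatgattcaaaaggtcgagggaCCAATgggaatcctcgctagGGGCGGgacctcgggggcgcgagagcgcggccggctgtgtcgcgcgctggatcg
The Msmo1 window held 3 CCAAT and 3 GC boxes, and the Sc5d window held 1 CCAAT box, 87 bases before the start, and 3 GC boxes. The Cyp51 window held 2 GC boxes and no CCAAT box. The Lbr window held 2 CCAAT and 3 GC boxes, of which the pair farthest from the start overlap each other. Boxes of both kinds were thus found in the Lbr window too.

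The arrays gave log2 values of 8793 transcript clusters, quantile-normalized by the authors. The median value of an array was 5.00 to 5.08 in MBP-EAE and 4.94 to 5.08 in healthy controls, and the array of healthy rat 195 had a narrower interquartile range (2.23) than the other 7 (2.61 to 2.93). Over all clusters, 14.6% were down-regulated and 11.3% up-regulated in MBP-EAE (25.9% in either direction) at a limma adjusted p below 0.05, with a median log2 difference of -0.10.

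Of the 10 members, 8 were down-regulated in MBP-EAE at that threshold and 0 were up-regulated, against 14.6% of all clusters lower, 11.3% higher and 25.9% in either direction. Their log2 differences (MBP-EAE minus healthy control) ran from -1.63 to 0.15, with a median of -0.76. Cyp51, Msmo1 and Sc5d passed that threshold with a fall of at least 2-fold, as did 0.864% of all clusters. For 7 members the 4 values in MBP-EAE lay below the 4 in healthy controls, as for 17.3% of all clusters. The 2 members that did not pass the threshold were Lbr and Ebp. In whole cords, fewer cells that make a transcript and less of it in each cell cannot be told apart.

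**Figure D1:**
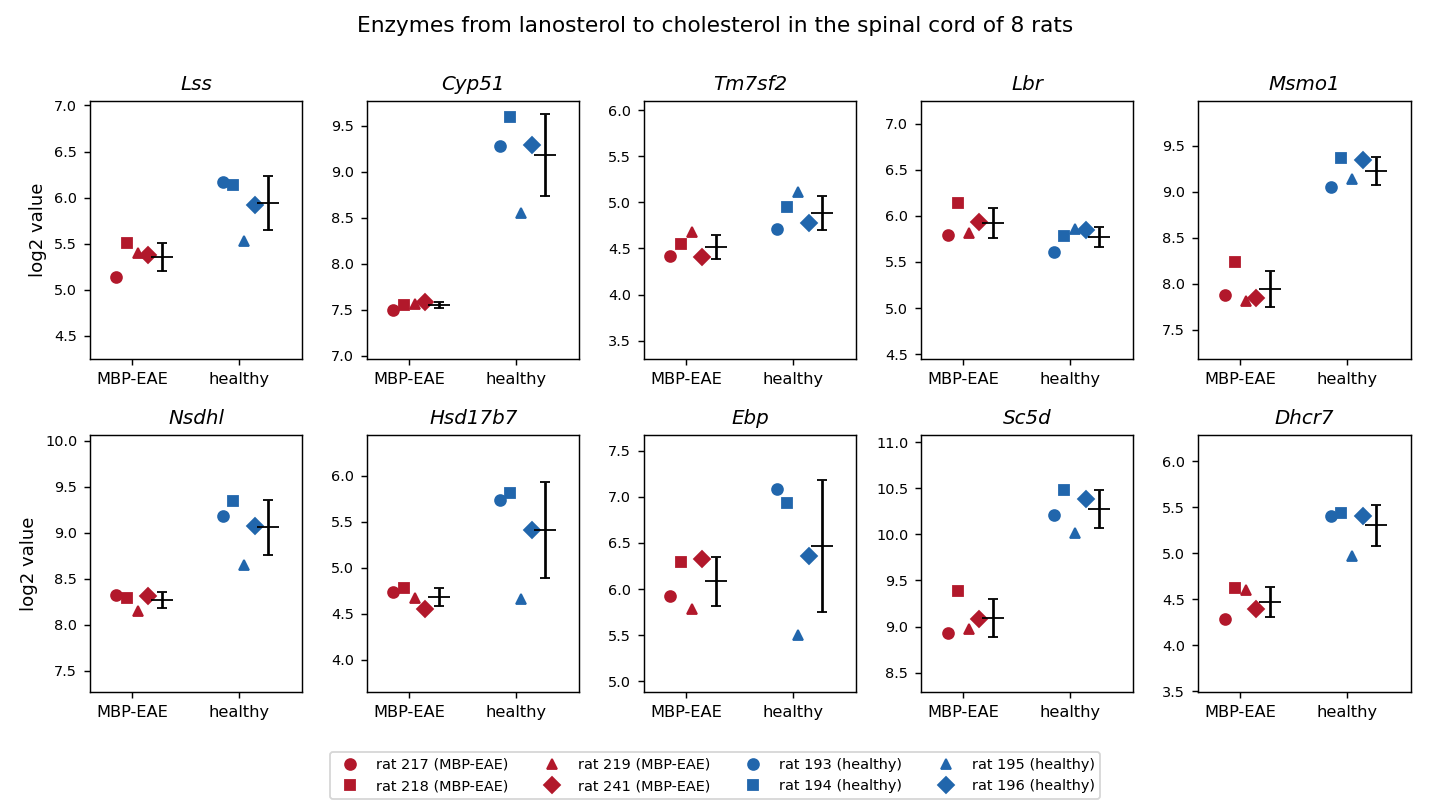
Log2 value of each of the 10 enzymes (vertical axis, the same span in every panel) in 4 rats with MBP-EAE (red) and 4 healthy controls (blue), with 1 symbol for each rat and the mean and SD of the group as a black bar. Cyp51 values in MBP-EAE lie between 7.50 and 7.59, all below the healthy values, while Lbr values of the groups overlap.

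Lss, lanosterol synthase, forms the first sterol of the pathway. Its log2 values were 5.14, 5.51, 5.40 and 5.37 in MBP-EAE rats 217, 218, 219 and 241, against 6.17, 6.13, 5.53 and 5.92 in healthy rats 193, 194, 195 and 196. The groups did not overlap, but the healthy rat 195 lay only just above the highest MBP-EAE value. Lss fell by 0.58 on the log2 scale (SE 0.15, adjusted p = 0.0184 from limma), a fold of 1.50. The call was lost without rat 217 (adjusted p = 0.0592) or rat 194 (adjusted p = 0.0565).

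Cyp51, the cytochrome P450 that demethylates lanosterol, had the largest fall of the 10 and the seventh largest of all clusters. It had log2 values of 7.50, 7.56, 7.57 and 7.59 in MBP-EAE, against 9.28, 9.60, 8.55 and 9.29 in healthy controls. The 4 values in MBP-EAE were close together (7.55 ± 0.04, SD, n = 4), whereas those in healthy controls spread more widely (9.18 ± 0.44, SD, n = 4), with rat 195 the lowest. Cyp51 was 3.09-fold lower in MBP-EAE (log2 difference -1.63, 95% interval -2.05 to -1.20, adjusted p = 0.000174 from limma).

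Tm7sf2 and Lbr both reduce the bond that demethylation leaves. Lbr is also the lamin B receptor, a protein of the inner nuclear membrane whose other part binds lamins and chromatin. Tm7sf2 had log2 values of 4.41, 4.55, 4.68 and 4.41 in MBP-EAE, against 4.71, 4.95, 5.11 and 4.78 in healthy controls. These values lay near or below the array medians, MBP-EAE rat 219 lay just under healthy rat 193, and Tm7sf2 fell by 0.37 (SE 0.12, adjusted p = 0.0408 from limma). The call for Tm7sf2 was lost without rat 194, 195, 196, 217, 218 or 241 (adjusted p = 0.0596 to 0.115). It was also lost with each array shifted by 5 genes often used as RT-PCR references (adjusted p = 0.124). Of these 5 genes, Actb (log2 difference 1.38, adjusted p = 1.24e-05 from limma) and Rplp0 (2.68, adjusted p = 0.000902) were themselves higher in MBP-EAE. Hprt1, Tbp and Ywhaz did not pass the threshold.

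Lbr had log2 values of 5.79, 6.14, 5.82 and 5.94 in MBP-EAE, against 5.61, 5.78, 5.85 and 5.84 in healthy controls. The groups overlapped, and the log2 difference of 0.15 (95% interval -0.09 to 0.40, adjusted p = 0.358 from limma) allows a level in MBP-EAE between 93.7% and 132% of that in healthy controls. Over 17 alternative settings the difference of Lbr lay between 0.04 and 0.22 and passed the threshold in 0 of them. Within each array, Tm7sf2 minus Lbr was -1.41 ± 0.20 in MBP-EAE and -0.88 ± 0.14 in healthy controls (SD, n = 4 each). This measure was chosen after the values had been seen, so that no test result is given for it.

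Msmo1, Nsdhl and Hsd17b7 act in turn to strip the paired methyl groups. Msmo1, the oxygenase that starts this removal, had log2 values of 7.88, 8.23, 7.81 and 7.84 in MBP-EAE, against 9.05, 9.37, 9.14 and 9.35 in healthy controls. Rat 218 stood above the other MBP-EAE rats, yet was well below the lowest healthy rat. Msmo1 was 2.43-fold lower in MBP-EAE (log2 difference -1.28, 95% interval -1.56 to -1.003, adjusted p = 5.16e-05 from limma), the smallest adjusted p of the 10.

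Nsdhl, the dehydrogenase that removes the oxidized methyl group as carbon dioxide, had log2 values of 8.33, 8.30, 8.14 and 8.32 in MBP-EAE, against 9.18, 9.34, 8.64 and 9.07 in healthy controls. The SD of Nsdhl was 0.08 in MBP-EAE and 0.30 in healthy controls (n = 4 each), of which rat 195 was the lowest. Not every member had the smaller SD in MBP-EAE. It was larger there for Msmo1, Lbr and Sc5d, and smaller for the other members. Nsdhl fell by 0.79 (SE 0.14, adjusted p = 0.00286 from limma), a fold of 1.73.

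Hsd17b7, the reductase that restores the hydroxyl group, had log2 values of 4.73, 4.78, 4.67 and 4.56 in MBP-EAE, against 5.73, 5.82, 4.67 and 5.42 in healthy controls. Healthy rat 195 lay within the MBP-EAE values, and the other 3 healthy rats lay above all of them. Hsd17b7 fell by 0.72 (SE 0.22, adjusted p = 0.0374 from limma). Without rat 195 the fall was 0.97 (adjusted p = 0.000281), whereas the call was lost when any of the other 7 rats was left out (adjusted p = 0.0634 to 0.101). It was also lost after a further quantile normalization (adjusted p = 0.0684) and after cyclic loess (adjusted p = 0.0711).

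Ebp, the isomerase that moves the ring bond, had log2 values of 5.93, 6.30, 5.78 and 6.33 in MBP-EAE, against 7.09, 6.93, 5.50 and 6.36 in healthy controls. Rat 195 was the lowest of all 8 rats, so that the groups overlapped, and the spread in healthy controls (SD 0.72, n = 4) exceeded the difference. The log2 difference of Ebp was -0.39 (95% interval -1.07 to 0.30, adjusted p = 0.405 from limma), which allows a level in MBP-EAE between 47.5% and 123% of that in healthy controls. Without rat 195 the difference of Ebp was -0.71 and passed the threshold (adjusted p = 0.0237), whereas it was -0.18 without rat 193 (adjusted p = 0.684) and -0.23 without rat 194 (adjusted p = 0.677).

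Sc5d, the desaturase of the next step, had log2 values of 8.93, 9.39, 8.97 and 9.09 in MBP-EAE, against 10.22, 10.48, 10.02 and 10.38 in healthy controls. The groups were far apart, with rat 218 the highest in MBP-EAE and rat 195 the lowest in healthy controls. Sc5d was 2.27-fold lower in MBP-EAE (log2 difference -1.18, 95% interval -1.49 to -0.87, adjusted p = 0.000173 from limma).

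Dhcr7, whose loss of function causes Smith-Lemli-Opitz syndrome in humans, reduces a ring bond late in the pathway. Its log2 values were 4.29, 4.62, 4.60 and 4.39 in MBP-EAE, against 5.40, 5.44, 4.98 and 5.40 in healthy controls. Every MBP-EAE value was below every array median, and rat 195 lay apart from the other healthy rats. Dhcr7 fell by 0.83 (SE 0.13, adjusted p = 0.00132 from limma), a fold of 1.78.

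**Figure D2:**
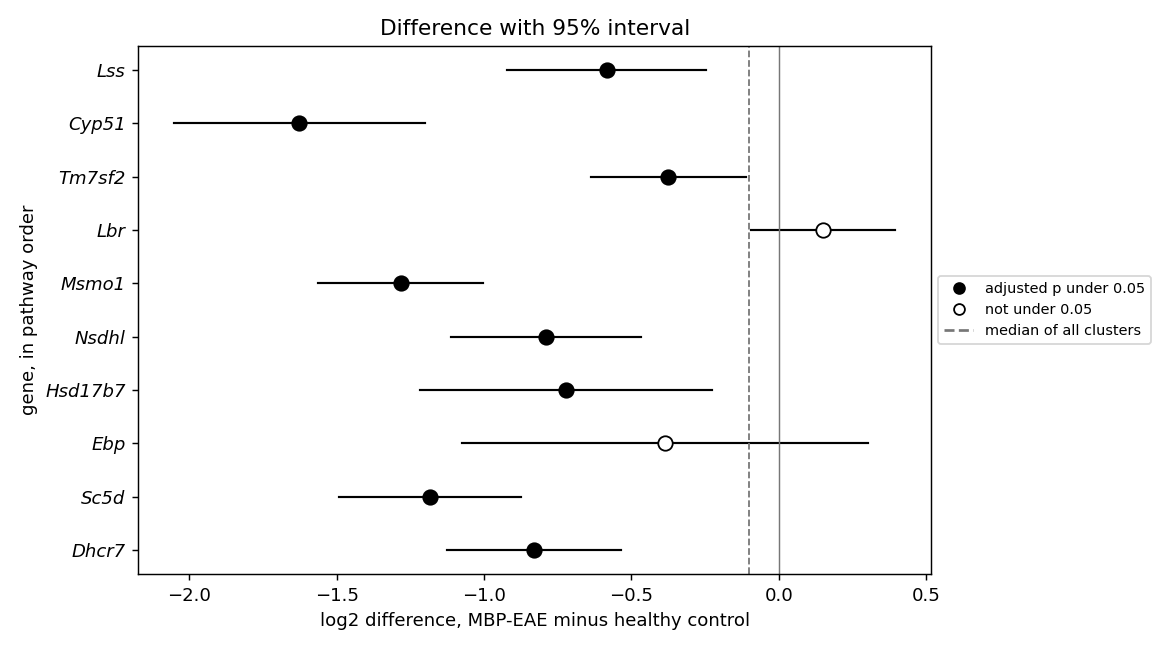
Log2 difference of each enzyme, MBP-EAE minus healthy control (horizontal axis), with its 95% interval from limma, in pathway order from the top. Filled points passed an adjusted p of 0.05, and the dashed line is the median of all clusters (-0.10); the intervals of Lbr and Ebp cross 0.

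The calls of 5 members held in each of the 8 fits that left out 1 rat. They were those of Cyp51, Msmo1, Nsdhl, Sc5d and Dhcr7, whose adjusted p in these fits reached at most 0.00107, 0.000374, 0.0107, 0.00107 and 0.00612. The number of members called lower was between 5 and 8 in these fits, and was 5 without rat 217 and 5 without rat 194. Without rat 195 it was again 8, with Ebp in place of Tm7sf2 (adjusted p = 0.0666 for Tm7sf2). By the two-sided exact permutation test over the 8 rats, the 7 members whose groups did not overlap had p = 0.0286, the smallest possible, and Hsd17b7, Lbr and Ebp had p = 0.114, 0.229 and 0.343.

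**Figure D3:**
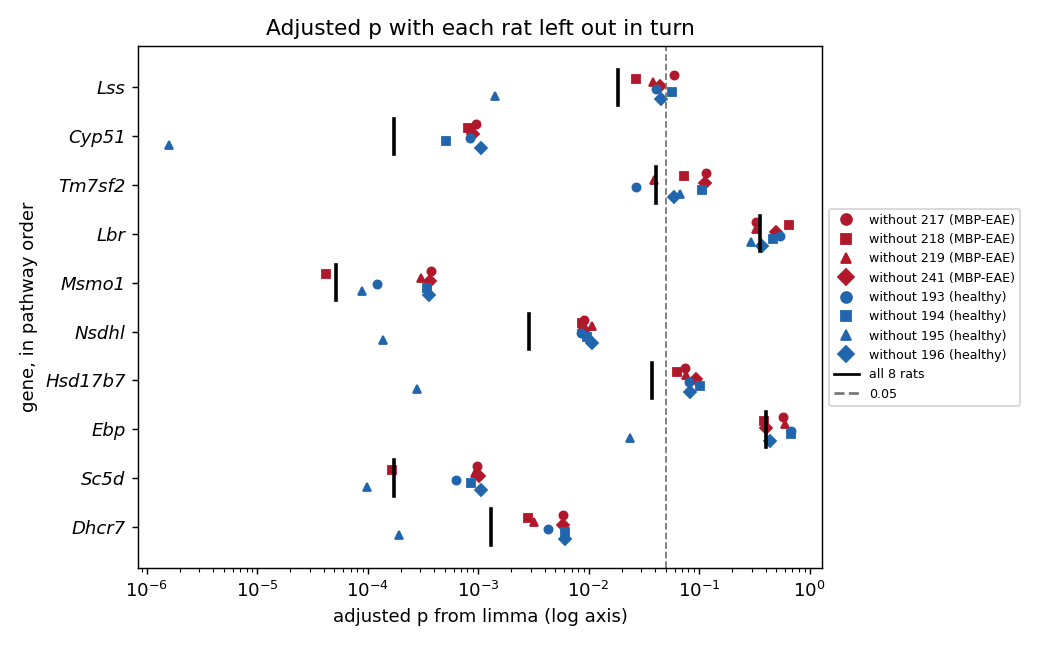
Adjusted p of each enzyme from limma (horizontal log axis) in 8 fits that each omit a different rat, MBP-EAE rats in red and healthy rats in blue; the black bar is the value with all 8 rats and the dashed line is 0.05. Points of Lss, Tm7sf2 and Hsd17b7 lie on either side of the line, and the point of Ebp without rat 195 lies at 0.0237.

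In some rats nearly all members lay on the same side of the group mean. Relative to the mean of its own group, rat 218 was higher for 10 of 10 members among the MBP-EAE rats, and rat 217 was lower for 8 of 10. Among healthy controls, rat 194 was higher for 10 of 10 and rat 195 lower for 8 of 10, with Tm7sf2 and Lbr as its exceptions. The mean deviation was 0.15 in rat 218 and -0.10 in rat 217, against 0.23 in rat 194 and -0.35 in rat 195. The deviation of rat 195 was largest for Ebp (-0.97), Hsd17b7 (-0.74) and Cyp51 (-0.63), and that array was also the one with the narrowest range over all clusters. The part of this array in the values was not tested. How many of all clusters lay on the same side in each rat was not counted. These counts are thus not shown to be particular to the members. Outside the pathway, rat 195 was also the lowest healthy rat for Mog (8.96) and Aqp4 (9.98), but the highest for Gjb1 (6.23). Relative to the healthy mean of each gene, the median member stood at -0.77, -0.65, -0.72 and -0.80 in rats 217, 218, 219 and 241, against 0.10, 0.20, -0.37 and 0.04 in rats 193, 194, 195 and 196. Rat 195 lay between the MBP-EAE rats and the other healthy rats, and was nearer to rat 218 than to any healthy rat.

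**Figure D4:**
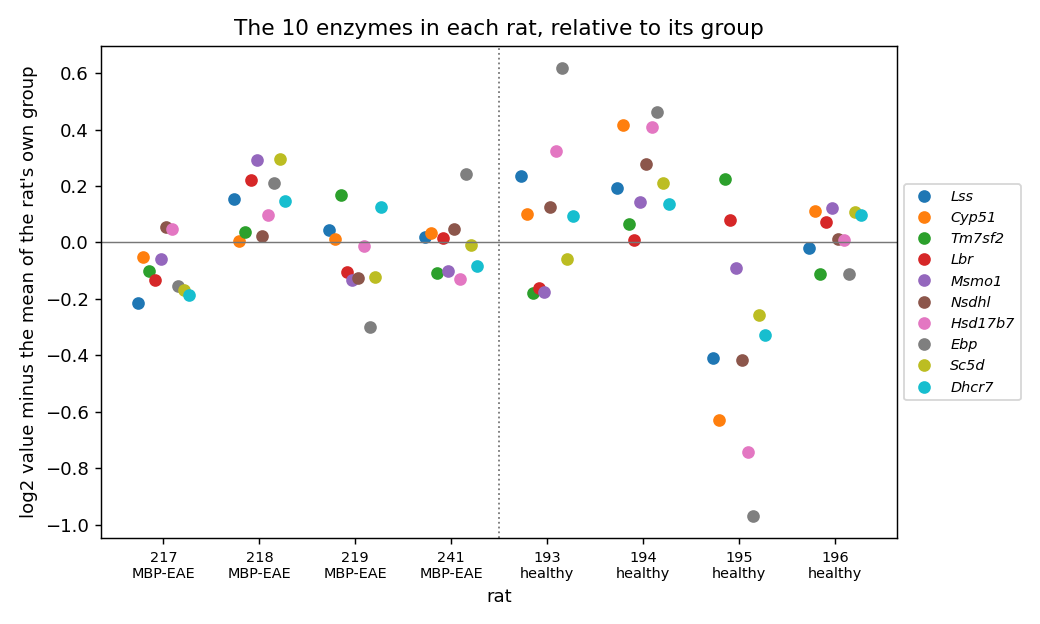
Log2 value of each enzyme minus the mean of the rat's own group (vertical axis) for the 4 MBP-EAE rats, left of the dotted line, and the 4 healthy rats, right of it, with 1 colour for each enzyme. All 10 points lie above 0 in rats 218 and 194, and 8 of 10 lie below 0 in rat 195.

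The genes with the profile most like that of a member were found by the root mean square difference over the 8 arrays, each gene first set to 0 at its healthy mean, among 7593 named clusters outside the members. For Msmo1 and Sc5d the nearest included Insig1 (0.12 and 0.16) and Sqle (0.20 and 0.10), and for Cyp51 they were Nexn (0.32), Sqle (0.34) and Insig1 (0.35). Sqle, squalene epoxidase, makes the substrate of Lss. The other nearest genes were Tmem196 (0.20) for Msmo1 and Ift80 (0.18) for Sc5d. For Dhcr7, which fell less, Ica1 (0.10), Pole3 (0.12) and Tmlhe (0.13) were nearest. Because only the healthy mean was set to 0, genes with a like fall between the groups are near by this measure. Likeness among the rats of a group was not measured apart from that fall.

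The steps before lanosterol were measured for 6 of 10 listed enzymes of the mevalonate and squalene part. Of these, 5 were lower and 0 higher in MBP-EAE (median log2 difference -0.71). Over all clusters 14.6% were lower and 11.3% higher, the shares to set beside this count and those below. The isomerase Idi1 fell by 1.72 (adjusted p = 3.82e-05 from limma), Sqle fell by 1.17 (adjusted p = 0.000478) and squalene synthase, Fdft1, fell by 0.92 (adjusted p = 0.00664). Of 5 measured enzymes that use the same precursors for isoprenoids and protein prenylation, 2 were lower, Ggps1 at a log2 difference of -0.82 (adjusted p = 0.000947) and Fnta at -0.38 (adjusted p = 0.00800). Among 7 fatty acid synthesis enzymes, which SREBP-1 mainly drives, 3 were lower and 0 higher, with the desaturase Scd at -1.22 (adjusted p = 0.000129) and Fads1 at -0.89 (adjusted p = 0.00925).

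Of the listed controllers of SREBP, 4 of 8 were measured. Insig1, which retains Scap and is itself an SREBP target, had log2 values of 8.68, 9.31, 8.85 and 8.88 in MBP-EAE, against 10.27, 10.37, 10.21 and 10.26 in healthy controls, and fell by 1.35 (adjusted p = 5.75e-05 from limma). Its paralogue Insig2 moved the other way, at 6.78, 6.57, 6.75 and 6.87 in MBP-EAE and 6.10, 6.33, 6.10 and 6.32 in healthy controls, and rose by 0.53 (adjusted p = 0.00478). Rat 218 had the highest Insig1 and the lowest Insig2 of the MBP-EAE rats. The SREBP protease Mbtps1 (log2 difference 0.28, adjusted p = 0.200) and the deacetylase Sirt2 (0.25, adjusted p = 0.423) did not pass the threshold. Srebf1, Srebf2 and Scap were not analysed here.

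Genes for sterol that cells release, store or take up were measured in the same cords. Among 6 measured genes of efflux and the liver X receptors (LXR), which are switched on by oxidized sterols, 4 were higher and 0 lower (11.3% of all clusters were higher). The transporter Abca1 rose by 1.83 (adjusted p = 6.53e-05 from limma), Lpcat3 by 1.01 (adjusted p = 0.00357), Apoe by 0.91 (adjusted p = 0.00904) and Abcg1 by 0.46 (adjusted p = 0.0196), while the receptor genes Nr1h2 (-0.03, adjusted p = 0.872) and Nr1h3 (0.09, adjusted p = 0.696) did not pass the threshold. Soat1, which esterifies cholesterol, rose by 2.23 (adjusted p = 1.86e-07), and Cyp27a1, which makes an oxysterol, by 0.46 (adjusted p = 0.00973), as 2 of 4 measured genes of esterification and turnover. Of 5 measured genes of uptake and transport, 3 were higher and 1 lower (14.6% of all clusters were lower). The lysosomal sterol carrier Npc2 rose by 1.62 (adjusted p = 7.10e-05) and the lysosomal lipase Lipa by 1.19 (adjusted p = 0.000938), and the lipoprotein receptor Vldlr fell by 0.75 (adjusted p = 0.00197).

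Markers of other cells moved in these cords too. The counts below stand beside 14.6% of all clusters lower and 11.3% higher. All 7 measured markers of monocytes and macrophages were higher in MBP-EAE, with log2 differences of 2.03 to 5.50. The mean log2 level of the 7 was 8.81 to 9.27 in MBP-EAE and 4.92 to 5.17 in healthy controls, and Ptprc, the leukocyte phosphatase, rose by 4.09 (adjusted p = 3.47e-09 from limma). Of 4 T cell markers 3 were higher, and of 2 endothelial markers 0 passed the threshold. Of 12 measured markers of mature oligodendrocytes, the cells that make myelin, 7 were lower and 0 higher, with differences of -1.18 to 0.33 and a median of -0.52. Their mean level was 8.67 to 8.95 in MBP-EAE and 9.05 to 9.45 in healthy controls. Mag fell by 0.66 (adjusted p = 0.00317), while Mog was at -0.13 (adjusted p = 0.723). Of 3 oligodendrocyte precursor markers 1 was lower. Of 8 neurone markers 4 were lower, with a mean level of 9.25 to 9.57 in MBP-EAE and 9.67 to 9.99 in healthy controls, and of 8 astrocyte markers 3 were higher and 0 lower. The part of these cell types in the fall of the 8 enzymes was not tested. Beside the differences of Cyp51 (-1.63, SE 0.19), Msmo1 (-1.28, SE 0.13) and Sc5d (-1.18, SE 0.14), the lowest among the oligodendrocyte and neurone markers was that of Ugt8, the galactosyltransferase of myelin lipids (-1.18, SE 0.14, named after its value was seen), and differences between genes were not tested.

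**Figure D5:**
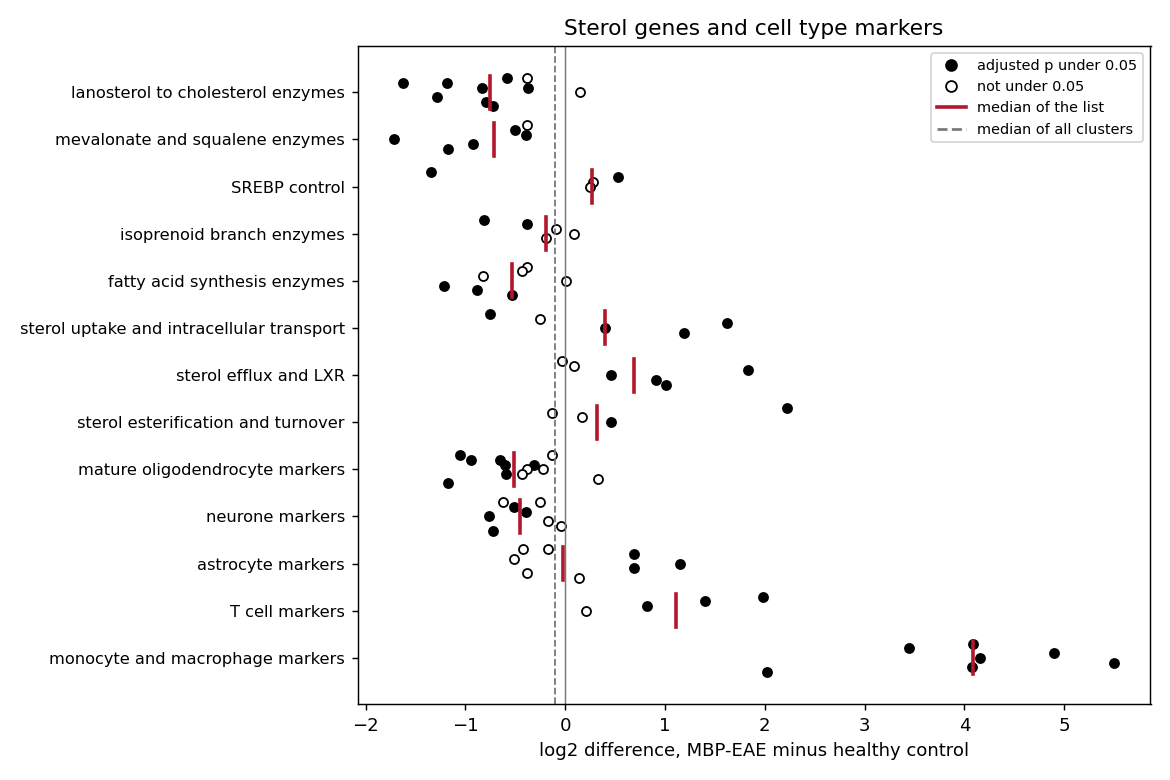
Log2 difference of each measured gene, MBP-EAE minus healthy control (horizontal axis), for lists of sterol genes and of cell type markers. Filled points passed an adjusted p of 0.05 from limma, red bars are list medians (-0.76 for the lanosterol to cholesterol enzymes, 4.09 for monocyte and macrophage markers) and the dashed line is the median of all clusters (-0.10).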

How the data were processed

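Spinal cord RNA of 8 rats was measured on Affymetrix Rat Exon 1.0 ST arrays, 1 for each rat. In Partek, the authors kept core probe sets, applied RMA background correction (GC-adjusted) and quantile normalization over the chips, and moved to the log2 scale. The deposited table holds these log2 values for 8793 transcript clusters. Processing notes name Affymetrix Expression Console, RMA, Partek and build rn4. The methods report a check for batches, which found no significant effect. Which rats shared a batch is not given in the sources used here, so that no values within batches are given.

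The deposited log2 values were used unchanged. Groups came from the sample labels, and each rat was 1 replicate. A model of group alone was fitted to each cluster by lmFit and eBayes (limma 3.58.1, R 4.3.3), with Benjamini-Hochberg adjustment over all 8793 clusters and a threshold of 0.05. A cluster was named only where the platform annotation gave 1 symbol (7603 clusters; 409 had several and 781 were not listed), and a gene with several clusters was taken at the brightest. Scripts were tested on simulated data. Alternatives were a t-test of each cluster (the study's text names a t test and its methods an analysis of variance), a trended robust prior, array weights, a filter on dim clusters, 4 scalings, named clusters alone and each rat left out. Named are the 10 members, the called genes of each pathway list with the largest differences, all measured SREBP controllers, examples of the oligodendrocyte and macrophage marker lists and the nearest profiles of 4 members. Nr1h2, Nr1h3 and Ugt8 fall outside this rule and were chosen after their values were seen. The members and lists were chosen with earlier results of these data known. Promoter sequences are from RefSeq (GRCr8). The number of arrays limits the precision. Figures were drawn with matplotlib 3.10.9.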

Additional observations from a re-analysis of the deposited data

Results flagged for a closer look

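In 3 of the 20 groups of 4 rats examined for the 10 enzymes, 1 rat stood far from the others, where the gap to its nearest neighbour divided by the range of the group exceeded the 95% critical value of Dixon's test (chance gives about 1 in 20 groups). In MBP-EAE, Msmo1 was 8.23 in rat 218, against 7.88 in the next rat (ratio 0.831), and Nsdhl was 8.14 in rat 219, against 8.30 in the next (ratio 0.831). In healthy controls, Dhcr7 was 4.98 in rat 195, against 5.40 in the next (ratio 0.911). The calls for Msmo1, Nsdhl and Dhcr7 held without the rat concerned.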

How the results depend on the processing

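Over 17 alternative settings, no member changed the sign of its difference. Cyp51, Msmo1, Nsdhl, Sc5d and Dhcr7 were called lower in every setting in which they were tested, while 21 fits of Lss, Tm7sf2 or Hsd17b7 lost the call and 2 fits gained one for Ebp. The filter on dim clusters left out Tm7sf2 and Dhcr7. With a t-test of each cluster 5 members and 1174 of 8793 clusters were lower after Benjamini-Hochberg (adjusted p = 0.0533 for Lss, 0.0617 for Tm7sf2 and 0.110 for Hsd17b7) and 8 members and 1918 clusters at an unadjusted p under 0.05. With array weights the median of the members was -0.97 and 2222 clusters were lower. Leaving out each rat gave 5 to 8 members lower and 0 higher, a median of -0.93 to -0.64, 835 to 1441 clusters lower and 809 to 1062 higher. The share of called clusters that were higher was 43.7% without rescaling, but cyclic loess gave 58.1%, with 1373 higher, 991 lower and 7 members lower. Averaging a gene's clusters could not alter a member, since each member has 1 cluster. No paired analysis was possible because the rats of the groups share no number.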
